A study of Rattus norvegicus with 8 samples.

Results

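The immediate early and stress response genes Fos, Jun, Junb, Egr1, Atf3, Ier3, Dusp1, Nr4a1, Btg2 and Gadd45g were followed in the small intestine, the spleen and the liver of rats given lavender oil (LO). The 10 genes were chosen by name with their LO/control ratios on these arrays known, so the values that chose them are those ratios. Their features were found by the RefSeq transcript identifier that each array file carries. They occupy 28 of the 43379 non-control features and 10 of the 41012 probes, because the probes of Jun and Egr1 are printed in 10 copies each. All 10 genes passed the filter on dim probes (30592 probes passed), Fos through its signal in the intestine and the spleen.

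Male rats, 7 weeks old, received LO at 5 mg/kg in 10% ethanol or 10% ethanol alone (control), with 6 rats in each group. Doses went into the stomach once daily for 13 days. The rats were dissected under ether on a later day than the last dose. The labels name the strain as Wistar in one field and as F334 in another. Total RNA was pooled within each group, and a control pool and an LO pool were hybridized together on each of 8 2-color arrays. Replicate 1 carried LO in Cy5 and replicate 2 carried LO in Cy3, so the dye-swapped arrays of a tissue hold the same RNAs. The intestine and the spleen have 2 arrays each and the liver has 4, from liver pool 1 and liver pool 2. Whether the liver pools come from different animals is not given in the sources used here. No value in these data therefore carries the spread between single rats, and in pooled tissue fewer cells of a type cannot be told apart from less RNA per cell.

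Immediate early genes are transcribed within minutes of a stimulus, from transcription factors already present in the cell, and their mRNAs are short-lived. Fos, Jun and Junb encode subunits of the AP-1 dimer, while Egr1, Atf3 and Nr4a1 encode other DNA-binding regulators. Dusp1, Ier3, Btg2 and Gadd45g encode proteins that feed back on kinase signaling, survival or the cell cycle. Handling, feeding state, anesthesia and dissection are known to move these genes. Both groups were dosed and dissected, but whether order, timing and feeding state were matched between them is not given in the sources used here. Their part in the values was not tested.

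The 3 promoters below are shown because Dusp1 and Gadd45g had lower signals with LO on all 4 liver arrays and Btg2 did not. Each is the 250 bases before the RefSeq start of the gene in the rat assembly GRCr8, read 5′ to 3′ on the strand of the gene. Capitals mark the core site of the cyclic AMP response element (TGACG on either strand, with TGACGTCA as the full site) and the TATA box (TATAAA, on either strand). A match is a description of the letters in this window only.

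The Dusp1 window lies at chr10:17184603-17184852 on the plus strand, the Gadd45g window at chr17:13530352-13530601 and the Btg2 window at chr13:48087691-48087940, both on the minus strand.
Dusp1: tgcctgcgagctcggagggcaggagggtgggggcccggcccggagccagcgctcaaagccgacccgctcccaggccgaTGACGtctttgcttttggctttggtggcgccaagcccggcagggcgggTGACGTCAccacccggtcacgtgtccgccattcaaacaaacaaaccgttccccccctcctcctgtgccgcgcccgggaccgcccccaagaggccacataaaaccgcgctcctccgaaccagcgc
Gadd45g: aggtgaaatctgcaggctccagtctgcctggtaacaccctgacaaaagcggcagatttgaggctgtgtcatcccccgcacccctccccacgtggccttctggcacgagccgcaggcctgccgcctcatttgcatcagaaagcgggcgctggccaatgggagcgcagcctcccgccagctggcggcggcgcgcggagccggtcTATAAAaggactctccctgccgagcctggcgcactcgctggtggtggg
Btg2: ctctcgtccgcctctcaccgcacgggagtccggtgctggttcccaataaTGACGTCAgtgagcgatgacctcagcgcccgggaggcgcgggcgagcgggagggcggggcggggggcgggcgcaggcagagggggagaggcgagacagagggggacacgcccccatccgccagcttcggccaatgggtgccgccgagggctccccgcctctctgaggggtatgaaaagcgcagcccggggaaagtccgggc

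The Dusp1 window held 1 full site and 3 core sites (the full site counts as 2 of them), Btg2 held 1 full site that accounts for both of its core sites, and Gadd45g held none and 1 TATA box. Of the 33469 promoter windows of the same length, 18.2% held a core site, 1.59% a full site and 12.9% a TATA box. Promoter entries matched 6 of the 10 genes. Nr4a1 had 4 core sites, Junb 1 and Egr1 2, and Egr1 also had 2 CArG boxes, the element bound by serum response factor, which 501 windows held. No window of the 6 genes held an AP-1 site (TGANTCA, found in 6.34% of windows).

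Before single genes are described, the quality of the arrays has to be stated. Per array, 44.3% to 64.7% of the features gave a signal clear of background in both dyes. With the sign set to LO/control, the log2 ratios of dye-swapped arrays correlated negatively across probes, with r = -0.63 for the intestine, -0.60 for the spleen and -0.72 for either liver pool. Over probes well above background in both channels, these values were -0.57, -0.40, -0.58 and -0.52. Across probes the part of the ratio that stays with the dye thus varied more than the part that stays with LO, and the dye-averaged ratios of the liver pools correlated by only 0.04 (0.19 over 16317 bright probes). The direction follows the dyes in the labels, and each gene is given on every array. Each tissue sits on its own slide, so slide and tissue cannot be told apart in any level compared between tissues. The hepatocyte markers had a median control level of 17.19 log2 units in the liver, 7.27 in the intestine and 5.46 in the spleen, although 5 of 6 were above background in the intestine and in the spleen too and Apoa1 was higher in the intestine (17.14) than in the liver (16.40). The enterocyte markers had medians of 16.47 in the intestine, 8.75 in the liver and 3.23 in the spleen, and the B cell markers were highest in the spleen at 15.58, against 11.38 in the intestine and 8.95 in the liver. The small intestine also carried all 5 exocrine pancreas markers, Prss1 at 12.64 and Cela1 at 8.03 log2 units above the spleen. The 5 pancreas markers had a median log2 LO/control of -0.18 in the intestine, and 2 of them were lower on both arrays.

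Across the 10 genes the largest LO/control differences were in the liver and, for Fos, in the spleen. Egr1, Gadd45g, Dusp1 and Ier3 had lower signals with LO on all 4 liver arrays (2.95% of all probes tested did), at means between 0.640 and 0.803 of control. None of the 10 was higher with LO on all 4 liver arrays. Fos was at 0.599 of control in the spleen. Since the genes were proposed with these ratios known, the values are a description and were not tested as a finding about them. In the same liver samples the 6 hepatocyte markers had a median log2 LO/control of 0.01 and none kept 1 sign on all arrays, the 2 macrophage markers (Cd68 and Csf1r) had a median of -0.12 and were lower on both arrays of pool 1 but not of pool 2, and Cd74, 1 of 2 B cell markers, was lower on all 4 arrays (mean -0.16). Their part in the liver values was not tested.

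**Figure D1:**
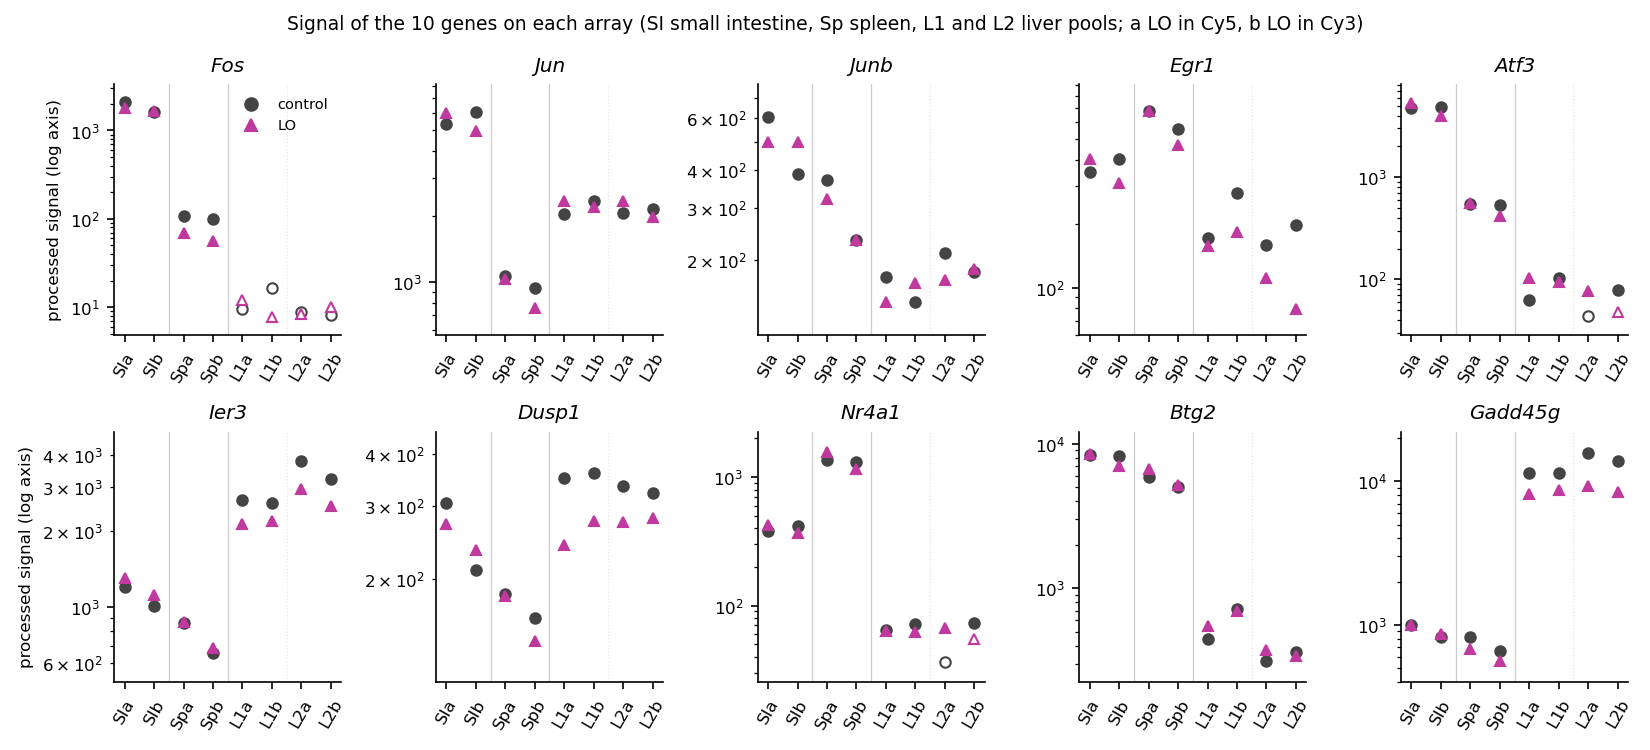
Processed signal (log axis) of each gene on the 8 arrays, with control as gray circles and LO as purple triangles, and open symbols where the channel was not well above background (Egr1 on L2b, with 8 of 10 LO copies above background, is drawn filled). SI is small intestine, Sp spleen, L1 and L2 the liver pools, a has LO in Cy5 and b has LO in Cy3. Gadd45g shows LO below control on all 4 liver arrays, and Fos shows it on both spleen arrays.

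**Figure D2:**
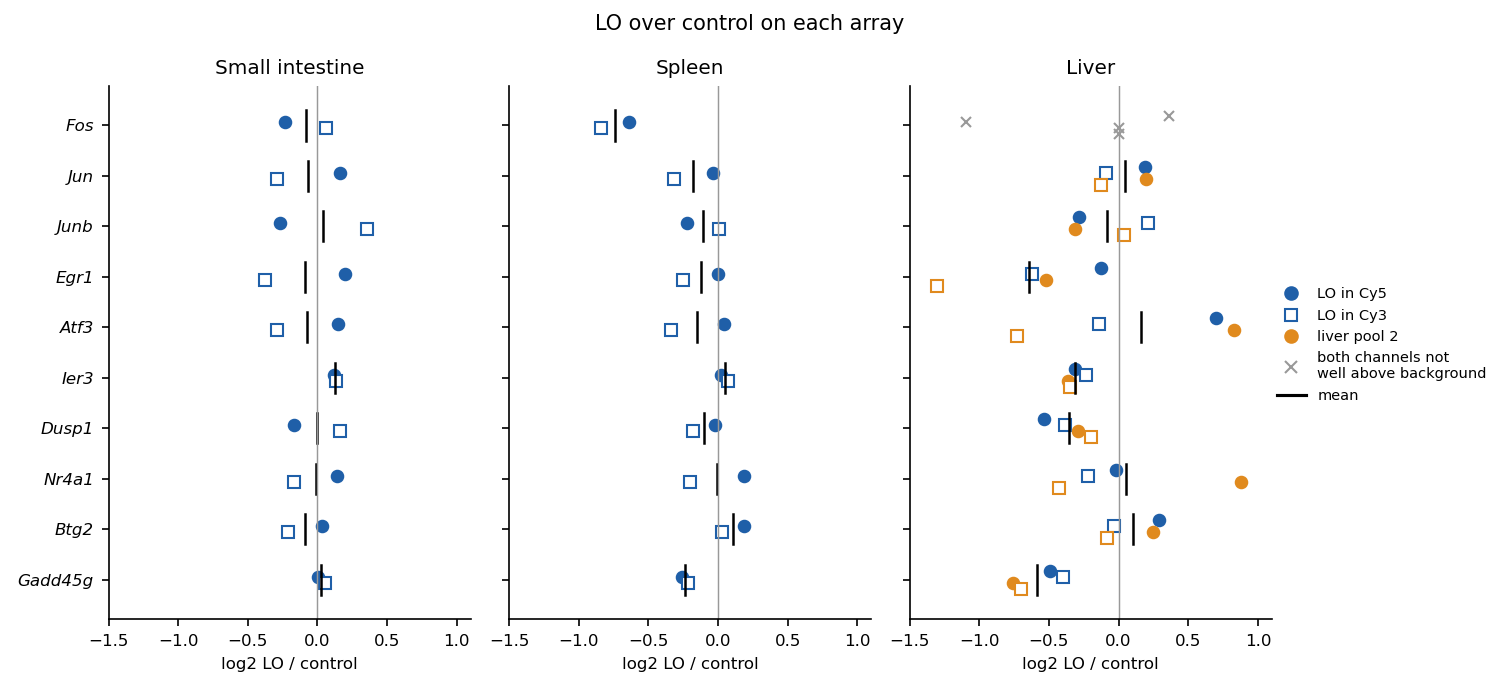
Log2 LO/control of each gene on every array, by tissue (filled for LO in Cy5, open squares for LO in Cy3, orange for liver pool 2, black bars for the mean, gray crosses where neither channel was well above background). Ier3, Dusp1, Gadd45g and Egr1 lie left of 0 on all 4 liver arrays, while Jun, Junb, Btg2 and Atf3 lie on both sides of it.

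Fos (NM_022197) encodes the AP-1 subunit that is classically induced first after a stimulus. In the spleen its control signals were 107 and 99.9 on replicates 1 and 2, and its LO signals were 69.1 and 55.7. LO was below control on both arrays, as it was for 15.8% of all probes tested. The log2 LO/control was -0.64 and -0.84, a mean of -0.74 (SD 0.15 over 2 dye-swapped arrays) or 0.599 of control. These spleen signals were low, though well above background, and the difference was smaller with another processing of the scans, given below. In the same spleen samples 4 of 6 hepatocyte markers (Alb, Apoa1, Apoc3 and Serpina1) and 3 of 3 erythroid markers were higher with LO on both arrays, with median log2 values of 0.51 and 0.30, and their part in the Fos value was not tested. In the intestine, where the Fos control signals were 2086 and 1598, LO gave 1778 and 1666. The arrays disagreed in sign, with log2 values of -0.23 and 0.06. In the liver Fos was not well above background in any of the 8 channel readings, so no ratio is given.

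Jun (NM_021835), the AP-1 subunit that can dimerize with itself, was read by 10 copies of its probe. In the spleen its control signals were 1058 and 938.6 and its LO signals 1030 and 754.9, a log2 LO/control of -0.04 and -0.31. In the intestine the values were 0.16 and -0.29, and in the liver they were 0.19 and -0.09 for pool 1 and 0.19 and -0.12 for pool 2. Jun was lower on both arrays only in the spleen. In the liver and the intestine the sign followed the dye, with the ratio above 1 where LO was in Cy5.

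Junb (NM_021836), an AP-1 subunit that often opposes Jun, had its dye pattern the other way round. Its log2 LO/control was -0.27 and 0.35 in the intestine, -0.22 and 0.01 in the spleen, -0.29 and 0.21 in liver pool 1, and -0.31 and 0.04 in liver pool 2. Each Cy5 array was negative and each Cy3 array positive. The tissue means were 0.04, -0.11 and -0.09 in intestine, spleen and liver. The SD over arrays (0.44, 0.16 and 0.26) holds the dye difference, which cancels in these means, so it does not measure their error.

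Egr1 (NM_012551) encodes a zinc finger factor that links growth factor and stress signals to metabolism. In liver pool 1 the control signals were 172 and 280.5 and the LO signals 158 and 182, and in pool 2 the control signals were 159 and 197 and the LO signals 111.0 and 79.8. LO was below control on each of the 4 arrays. The log2 LO/control was -0.13 and -0.62 in pool 1 and -0.52 and -1.31 in pool 2, a mean of -0.64 (SD 0.49, n = 4 arrays) or 0.640 of control. The lowest array of pool 2 and the lowest of pool 1 had LO in Cy3, the orientation in which this probe also read lower in the other tissues. On the lowest array, 8 of the 10 LO copies were well above background and the copy ratios ran from 0.284 to 0.533. On the first array of pool 1 they ran from 0.850 to 0.976, so every copy was below 1 there as well. In the intestine Egr1 gave log2 values of 0.20 and -0.38, and in the spleen 0.00 and -0.25.

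Atf3 (NM_012912) encodes a stress-induced repressor and Nr4a1 (NM_024388) an orphan nuclear receptor. Neither had the same sign on all liver arrays. Atf3 gave log2 values of 0.70 and -0.14 in pool 1 and 0.83 and -0.73 in pool 2. Nr4a1 gave -0.02 and -0.22 in pool 1 and 0.88 and -0.42 in pool 2. In pool 2 the Cy3 channel of both genes was not well above background on either array, so those ratios rest on 1 measured channel. In the intestine the Atf3 values were 0.15 and -0.29 and the Nr4a1 values 0.14 and -0.17, while in the spleen they were 0.04 and -0.34 for Atf3 and 0.19 and -0.20 for Nr4a1. For both genes LO read higher when it carried Cy5, on all 4 pairs of arrays.

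Gadd45g (NM_001077640) encodes a protein of the growth arrest and DNA damage family that binds upstream kinases of the stress pathway. Its liver control signals were 11482 and 11458 in pool 1 and 15635 and 13795 in pool 2, against LO signals of 8152 and 8709 in pool 1 and 9256 and 8478 in pool 2. LO was below control on all 4 liver arrays, as it was for 2.95% of all probes tested. The log2 LO/control was -0.49, -0.40, -0.76 and -0.70, a mean of -0.59 (SD 0.17, n = 4 arrays) or 0.666 of control. The dye part was small for this probe, between -0.05 and -0.02 log2 on the 4 pairs. In the spleen the LO signals lay on the same side, 818 and 652 in control against 683 and 561 with LO, a mean log2 of -0.24 (SD 0.03). In the intestine the mean was 0.03, with 0.00 and 0.05 on the arrays.

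Dusp1 (NM_053769) encodes the phosphatase that switches off MAP kinases after a stress signal. Its liver control signals were 350.2 and 359 in pool 1 and 334 and 321 in pool 2, and its LO signals were 242 and 275 in pool 1 and 273 and 279 in pool 2. All LO signals lay below all control signals. The log2 LO/control of -0.54, -0.39, -0.29 and -0.20 averaged -0.35 (SD 0.14) or 0.783 of control. In the spleen Dusp1 was -0.02 and -0.18, and in the intestine -0.17 and 0.16.

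Ier3 (NM_212505) encodes a stress-induced regulator of cell survival. Its liver control signals were 2667 and 2578 in pool 1 and 3788 and 3213 in pool 2, against 2141, 2195, 2942 and 2521 with LO. Within each pool the LO signals were below both control signals, but the pools differed in level, so LO of pool 2 overlapped the control of pool 1. The log2 LO/control was -0.32, -0.23, -0.36 and -0.35, a mean of -0.32 (SD 0.06) or 0.803 of control. Ier3 was on the other side in the intestine, with 0.12 and 0.14, and close to 0 in the spleen, with 0.02 and 0.07.

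Btg2 (NM_017259) encodes an antiproliferative cofactor. It was higher with LO on both spleen arrays, where control signals of 5897 and 5028 met LO signals of 6699 and 5133. Its spleen log2 values of 0.18 and 0.03 averaged 0.11 (SD 0.11). In the liver it gave 0.29, -0.04, 0.25 and -0.08, and in the intestine 0.03 and -0.21. The sign followed the dye in the liver and the intestine.

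The counts stand beside the same counts over all probes. In the liver 4 of the 10 genes were lower on all 4 arrays, where 2.95% of all probes tested were (4.16% of those bright in both channels), and 0 of 10 were higher, where 3.19% were. In the spleen 4 (Fos, Jun, Dusp1 and Gadd45g) were lower on both arrays against 15.8% of probes, and 2 (Ier3 and Btg2) were higher against 15.0%. In the intestine 0 were lower against 12.5% and 2 (Ier3 and Gadd45g) were higher against 14.1%. The median log2 LO/control of the 10 was -0.038 in the intestine, -0.11 in the spleen and -0.13 in the liver, with medians of all probes at 0.00 in each. The liver median was -0.085 without Fos, which was not above background there, -0.32 over the genes bright on every liver array and -0.044 with normexp and loess. With either dye orientation left out it lay between -0.31 and -0.059, the spleen median between -0.21 and -0.0086, and the intestinal median between -0.058 and 0.074, so the last had no stable sign. Since the choice of genes used the same ratios, nothing is read from these counts.

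**Figure D3:**
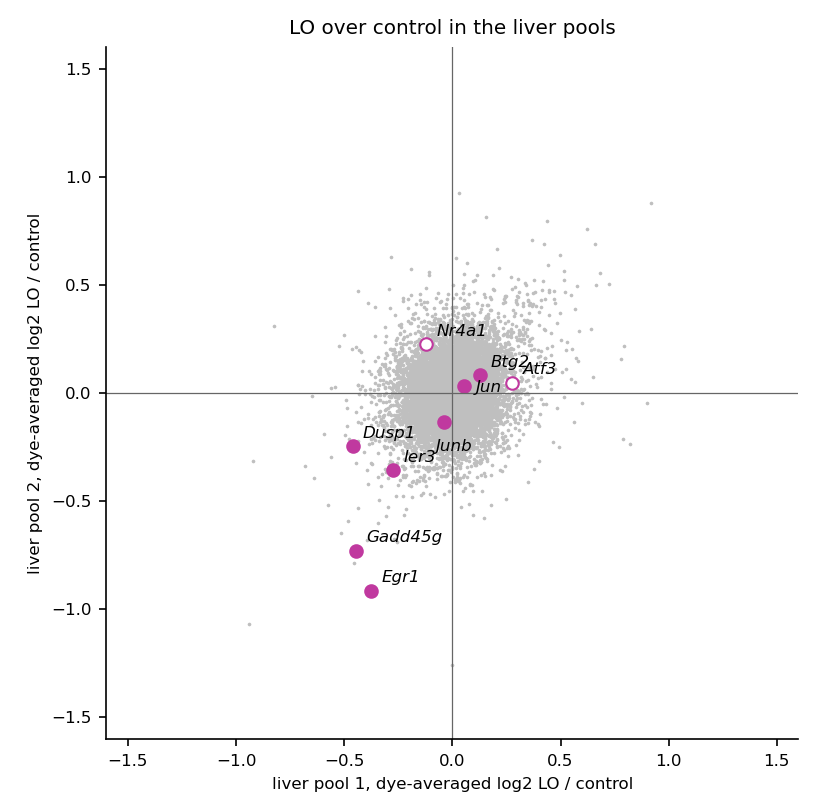
Dye-averaged log2 LO/control in liver pool 1 and liver pool 2 for the 16317 probes well above background in both channels on all 4 liver arrays (gray) and 9 of the 10 genes (purple, open where a channel was not well above background, Fos left out). Gadd45g, Egr1, Dusp1 and Ier3 lie in the lower left, below 0 in both pools.

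The cut-offs in the methods of the study ask for a ratio of at most 0.75 or at least 1.5 with P below 0.01. Here they were applied on every array to Cy5 over Cy3, not to LO/control. A down-regulated feature needed at most 0.75 where LO was in Cy5 and at least 1.5 where LO was in Cy3. An up-regulated one needed the reverse. In the spleen Fos passed as down-regulated, 1 of 4 such features (0.00923% of 43345), and with no limit on P it was 1 of 66 (0.152%). In liver pool 2, Gadd45g and 2 of the 10 copies of Egr1 passed among 10 down-regulated features (0.0231%), and 9 copies of Egr1 passed with no limit on P, where 322 features did (0.743%). In liver pool 1 no gene of the 10 passed, with or without the limit on P (3 and 174 features down-regulated, 0.00692% and 0.401%). With both pools required, 0 of the 10 passed in the liver, with or without the limit on P (2 and 11 features, 0.00461% and 0.0254%). Egr1 and Gadd45g met the cut-offs in pool 2 and not in pool 1, and the difference between the pools was not tested.

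The limma fit, with the dye-swapped arrays averaged into 1 value for each pair of pools, called 0 of 30592 probes at an adjusted p of 0.05 in each tissue (0%). The lowest adjusted p values were 1.0 in the intestine, 1.0 in the spleen and 0.830 in the liver. At an unadjusted p under 0.05, 1206, 1302 and 1778 of the 30592 probes passed, among them 0, 0 and 3 of the 10 genes. The genes were chosen with their LO/control ratios known. Nothing is therefore read from the members that passed, here or under the other processing below. The residual spread has 1 degree of freedom, from the difference between the liver pools. With 1 degree of freedom a count of 0 does not show that LO and control were alike. Another processing of the scans changed this result. Normexp background correction (offset 50) and loess were applied to the median signals in place of the deposited ratios. The fit then called 33, 104 and 140 of 30592 probes. Among these were Fos in the spleen (log2 -0.35) and Egr1 (-0.34), Ier3 (-0.30) and Gadd45g (-0.59) in the liver. Dusp1 was not among them, at -0.23. Background model, dye normalization and input signal changed together there, so the part of each was not tested.

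The other genes of the response were taken as 4 lists by symbol, chosen with earlier results known. None was called in any tissue. Among the other transcription factors 15 of 20 were tested, and in the liver 0 were lower and 2 (Jund and Mafk, the latter not bright on every array) higher with LO on all 4 arrays, where 2.95% of all probes tested were lower and 3.19% higher. Of the other feedback regulators 15 of 20 were tested, and 2 (Dusp6 and Ier2) were lower and 1 (Errfi1) higher. Of the growth arrest and damage genes 11 of 14 were tested, and 1 (Gadd45a) was lower and 2 (Ddit4 and Atf4) higher. Of the upstream kinases and factors 8 of 12 were tested, and 1 (Atf2, not bright on every array) was lower. The liver medians of the 4 lists lay between 0.02 and 0.06, the intestinal medians between -0.02 and 0.06, and the spleen medians between -0.02 and 0.02.

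Among the genes bright on every liver array, Myc, a growth transcription factor, had the lowest mean log2 LO/control at -0.39, with -0.83 on its lowest array and 0.01 on its highest. Gadd45a, from the same family as Gadd45g, came next at -0.38 and was lower on every array, between -0.56 and -0.16. The highest were Ddit4, an inhibitor of mTOR signaling induced by stress, at 0.40 (0.09 to 0.73) and Phlda3 at 0.24 (-0.28 to 0.78). Ddit4 was higher on all 4 arrays and Phlda3 was not. The Ddit4 control level in the liver was low, at 5.80 log2 units. In the intestine the extremes were Nfil3 (-0.18) and Egr3 (-0.16) at the low end and Ddit3 (0.15) and Plk2 (0.12) at the high end. In the spleen they were Ddit4 (-0.10) and Ier2 (-0.09) against Egr3 (0.27) and Ppp1r15a (0.19). Egr3, a relative of Egr1, was higher on both spleen arrays, at a low control level of 4.44 log2 units.

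**Figure D4:**
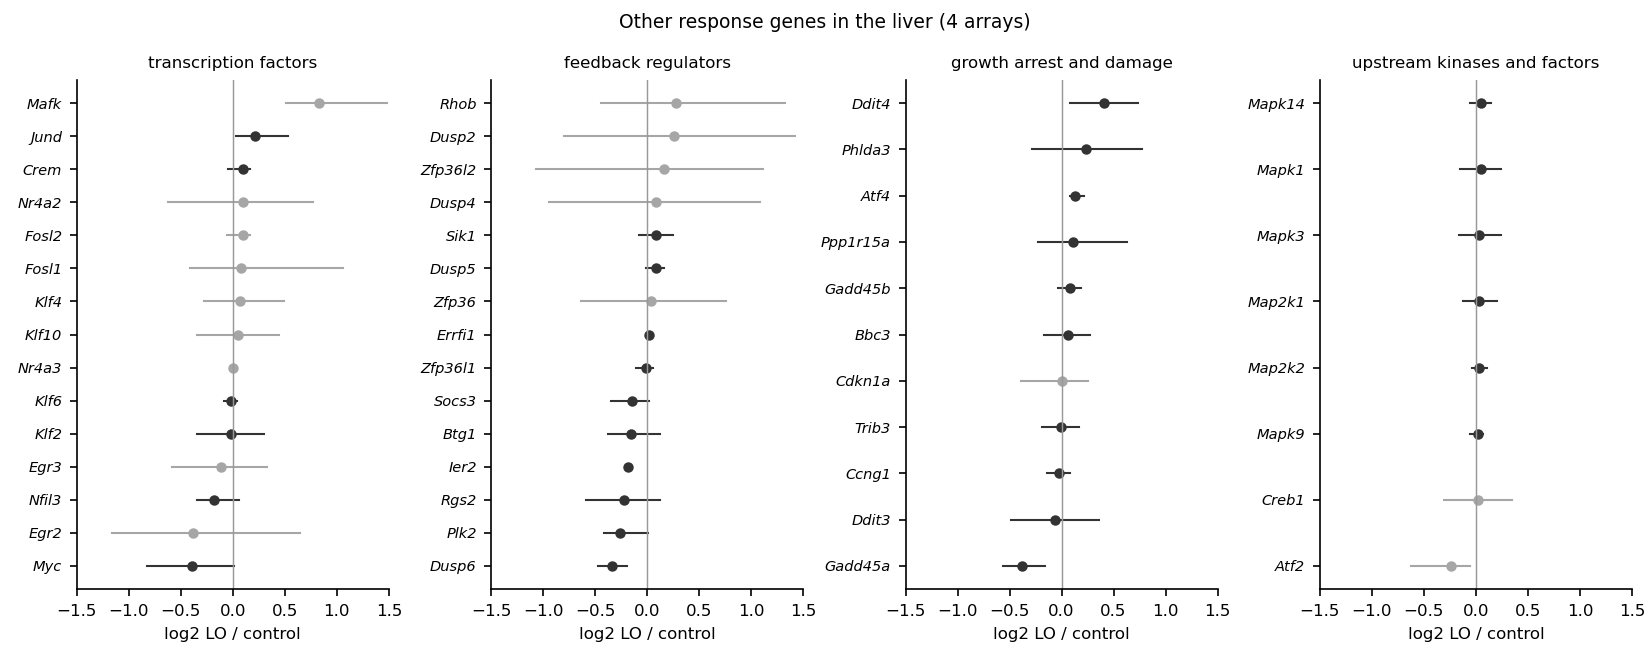
Log2 LO/control in the liver for the other genes of the response in 4 lists, with points for the mean and lines from the lowest to the highest of the 4 arrays (gray where a channel was not well above background on every array). Dusp6, Ier2 and Gadd45a lie below 0 and Jund, Ddit4 and Atf4 above it on all 4 arrays.

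The level of the genes in control animals was compared between tissues with limma, a contrast that the choice of the genes did not name. The dyes of one control RNA were averaged, and levels are log2 of the signal after quantile scaling between arrays. The intestine and the spleen have 1 control pool each, so the fit takes the spread from the 2 liver pools, and its p values hold no spread between rats. In this fit 33.0% of 30592 probes differed between liver and spleen, 22.3% between liver and intestine, and 11.9% between intestine and spleen. Of the 10 genes 8, 6 and 3 did. Fos is 1 of the 8 and 1 of the 6, but it passed the filter on dim probes only through the intestine and the spleen. Its differences from the liver were thus favored by the filter. They are given below as folds over the dimmest detected liver signals, with no test. With all 8 arrays in the fit and the replicate number (the dye) as a block, 9, 9 and 6 genes differed. There 18633, 16395 and 12487 of 30592 probes did, and arrays of one RNA count as separate samples.

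Gadd45g and Ier3 were higher in the liver than in both other tissues, and Dusp1 was higher there than in the spleen. The Gadd45g control level was 13.71 in the liver, 9.54 in the intestine and 9.05 in the spleen. The liver was higher by 4.66 ± 0.44 (SE) than the spleen (25.3-fold, adjusted p = 0.00356) and by 4.16 ± 0.44 than the intestine (17.9-fold, adjusted p = 0.00538), while intestine and spleen did not pass (0.50 ± 0.51, adjusted p = 0.606). Ier3, at 11.74 in the liver, was 2.64 ± 0.45 above the spleen (adjusted p = 0.0146) and 1.92 ± 0.45 above the intestine (adjusted p = 0.0422, which was lost without replicate 1 at 1.85 and without replicate 2 at 1.99). Dusp1, at 8.78 in the liver, was 1.83 ± 0.40 above the spleen (adjusted p = 0.0277), and its difference of 1.05 ± 0.40 from the intestine did not pass (adjusted p = 0.126). Without replicate 1 the Dusp1 difference between liver and spleen no longer passed (1.76). Gadd45g, Ier3 and Dusp1 had their highest mean control level in the liver, though for Dusp1 the difference from the intestine did not pass. Egr1 had levels of 8.79 in the spleen, 8.30 in the intestine and 7.98 in the liver, and no pair of tissues passed (adjusted p from 0.193 to 0.609).

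Atf3 was higher in the intestine than in both other tissues, and Fos and Jun were higher there than in the spleen. Atf3 was at 12.01 there, 8.59 in the spleen and 6.43 in the liver, and all 3 steps passed, with intestine over spleen at 3.42 ± 0.52 (adjusted p = 0.023) and spleen over liver at a liver minus spleen difference of -2.16 ± 0.45 (adjusted p = 0.0251). Fos was at 10.56 in the intestine and 6.27 in the spleen, a difference of 4.29 ± 0.64 (19.6-fold, adjusted p = 0.0212). In the liver Fos was not well above background, so its levels were set against the dimmest liver signals that were well above background. The intestine was 47.1-fold and the spleen 2.40-fold above that mark. The dimmest detected signal does not limit an undetected one, so these folds are not strict bounds. Jun was 2.69 ± 0.46 higher in the intestine than in the spleen (adjusted p = 0.03) and 1.72 ± 0.40 higher in the liver than in the spleen (adjusted p = 0.0325). Its liver minus intestine difference of -0.97 ± 0.40 did not pass (adjusted p = 0.149). Without replicate 1 the intestine minus spleen differences of Fos (4.14), Jun (2.82) and Atf3 (3.40) and the liver minus spleen differences of Jun (1.70) and Atf3 (-1.92) did not pass, and without replicate 2 those of Jun (2.56) and Atf3 (3.43) between intestine and spleen did not. The pancreas markers stand in the same intestinal samples, and their part in these levels was not tested.

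Nr4a1 and Btg2 were lower in the liver than in both other tissues. Nr4a1 was at 10.04 in the spleen, 8.39 in the intestine and 6.20 in the liver, a liver minus spleen difference of -3.84 ± 0.44 (adjusted p = 0.00584) and a liver minus intestine difference of -2.19 ± 0.44 (adjusted p = 0.0302), which did not pass without replicate 1 (-2.09) or without replicate 2 (-2.29). The intestine minus spleen difference of -1.65 ± 0.51 did not pass (adjusted p = 0.118). Btg2 was at 12.79 in the intestine, 12.41 in the spleen and 9.12 in the liver, with a liver minus intestine difference of -3.67 ± 0.46 (adjusted p = 0.00853) and a liver minus spleen difference of -3.29 ± 0.46 (adjusted p = 0.00914). Junb lay between 8.66 in the intestine and 7.71 in the spleen, and no pair passed (differences of 0.14 ± 0.43, -0.81 ± 0.43 and 0.95 ± 0.49, adjusted p from 0.231 to 0.826). The 2 liver control pools differed by 0.56 for Btg2 and by 0.00 for Dusp1.

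Scaling each channel to its 75th percentile in place of quantile scaling shifted the median of all probes by 0.29 for liver minus spleen, 0.21 for liver minus intestine and 0.10 for intestine minus spleen. No difference of the 10 genes changed its sign or its side of the threshold under that scaling.

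**Figure D5:**
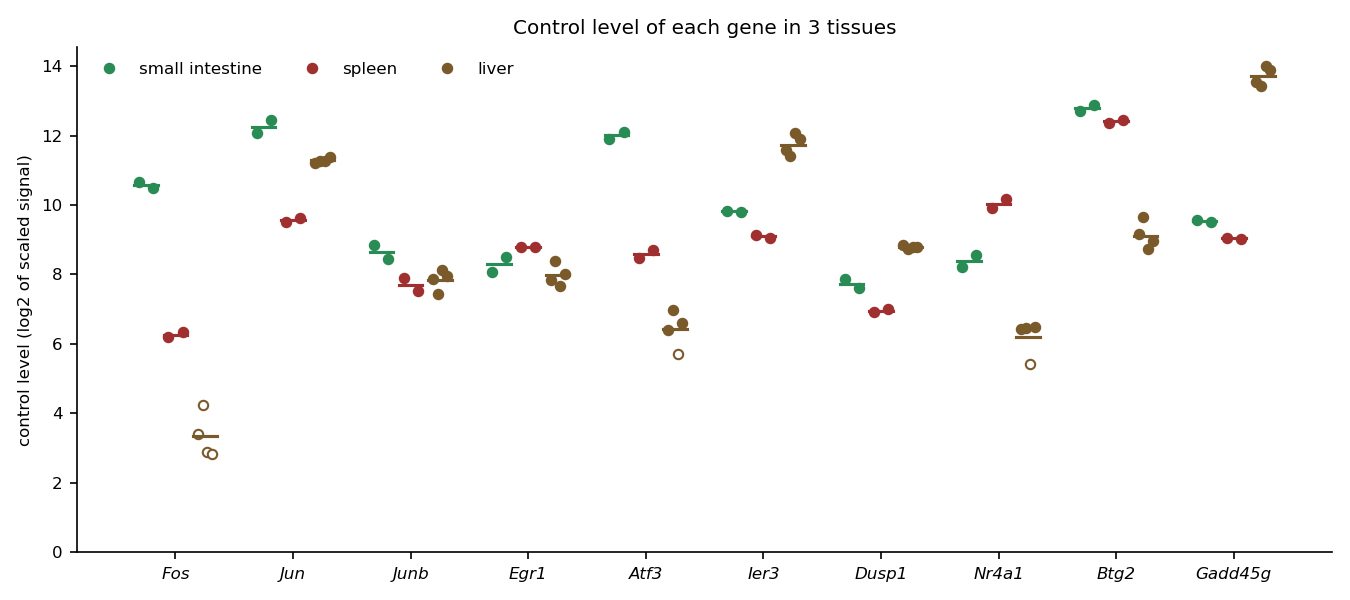
Control level (log2 of the scaled signal) of each gene, with 1 point for each array, bars for the mean of a tissue, and open points where the control channel was not well above background. Tissues are to be compared within a gene only, since probes differ in brightness. Gadd45g and Ier3 had their highest means in the liver, Fos and Atf3 in the intestine, and Nr4a1 in the spleen.

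Fos and Egr1 were also set against all named probes over the 8 dye-averaged levels (control and LO of each pair of pools). For Fos the highest r were those of Ankrd34a (0.998), Cyp4f5 (0.998) and Fas (0.998), but 4 of the 8 Fos levels, those of the liver, were not well above background, and of the Ankrd34a levels only 1 was on both arrays. For Egr1, with all 8 levels above background, the highest were those of Lrrc57 (0.974), Dctn4 (0.948) and Klri2 (0.945), of which 7, 4 and 4 levels were above it. Levels below background have no order, so these genes are named by the rule and nothing is read from their rank. These r values describe 8 levels from 3 tissues, in which LO and control share arrays, and carry no p.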

How the data were processed

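Dual-dye Agilent arrays of rat small intestine, spleen and liver were analyzed, grouped by tissue, liver pool and dye as the labels give them. Per the labels, the authors extracted the images with Agilent Feature Extraction 11.0.1.1. They deposited log10 ratios of Cy5 over Cy3 after background subtraction and LOWESS, p-values of the software's error model for a single array, processed signal intensities, median pixel intensities and flags. The series table they deposited holds log10 ratios of Cy5 over Cy3 as well (medians of its columns between -0.0225 and 0.0166). They equal those of the scanner files within 4.3e-07 where both channels exceed background, were not the same for every dimmer feature, and served as an alternative after the same turn to LO/control.

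Log10 ratios were turned to log2 LO/control. The 34 features flagged as non-uniform were left out, and copies of a probe were averaged. Probes whose signal exceeded background in either dye on 2 or more arrays were kept (30592 probes). The limma package 3.58.1 in R 4.3.3 was fitted to dye-averaged values, with Benjamini-Hochberg adjustment over all probes and a threshold of 0.05. Control levels came from the processed signals after Aquantile scaling. The Fos folds against the liver used the lowest signal well above background on each liver array. The probe's own signal was used if higher. The normexp alternative (offset 50, then loess) used median signals, since the files hold no mean signals. Symbols came from the RefSeq table, which named 10760 probes and left 30219 without a symbol. Python 3.11.15 was used for summaries. The fits were tested on simulated data.

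The genes, lists and tests were chosen with earlier results of these data known. Of the other genes of the response, those named were the 2 highest and 2 lowest of each tissue among probes bright in both channels on every array, with the members of each list that kept 1 sign on every liver array. Same-numbered replicates share a dye orientation, per the labels, and their deviations from the pair means correlated by 0.554 to 0.805. The number of arrays limits the precision, and depth in reads does not apply.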

Additional observations from a re-analysis of the deposited data

Results flagged for a closer look

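Ier3 and Gadd45g differed between tissues in the sign of LO/control on every array, and none of these differences was tested. Ier3 was higher with LO on both intestinal arrays and both spleen arrays and lower on all 4 liver arrays, so that its mean log2 LO/control was 0.44 higher in the intestine and 0.36 higher in the spleen than in the liver. Gadd45g was higher with LO on both intestinal arrays and lower on both spleen arrays and on all 4 liver arrays, with a mean 0.27 higher in the intestine than in the spleen and 0.62 higher than in the liver. The intestinal mean of Gadd45g was 0.03, and it was -0.01 under normexp and loess.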

How the results depend on the processing

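For control levels, no direction of the 10 genes that passed a test was turned by any alternative. For LO/control none of the 10 passed the main fit, so this says nothing about those directions. The median log2 LO/control of the 10 in the intestine was -0.038 and lay between -0.058 and 0.074 when either dye orientation was left out. In the liver it was -0.13, between -0.31 and -0.059 with either orientation left out, -0.044 with normexp and loess and -0.32 over probes bright on every array. Without Fos, a choice made after seeing the data, it was -0.085. Normexp with loess on median signals changes background model, normalization and input together. It raised the members called for LO/control from 0 to 1 in the spleen and 3 in the liver. All probes called rose from 0 to 33, 104 and 140 of 30592. The genes were chosen with their ratios known, so nothing is read from the members called. Leaving out a dye orientation leaves 1 array for each pair of pools. This gave 3 to 5 genes lower and 5 to 7 higher in the intestine, and 5 to 7 lower and 3 to 5 higher in the spleen. In the liver 5 to 8 were lower and 1 to 3 higher, counting only genes with the same sign in both pools. No share of all probes stands beside these counts, so nothing is read from them. Without the averaging, 1, 0 and 0 probes were called in the 3 tissues, and the same with the replicate block, with 0 of the 10 genes. Over probes bright on every array of the tissue, 2 probes were called in the liver, neither of them one of the 10 genes.

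For control levels, the genes called were 8 for liver minus spleen and fell to 4 without replicate 1 (4 to 8 without a replicate), and 3 for intestine minus spleen, with 0 to 1 without a replicate and 6 with the replicate block. With the LO channel in place of the control channel, Atf3 for liver minus spleen (-1.85) and Ier3 for liver minus intestine (1.48) did not pass. The cause was not tested. Liver pool 2 alone raised the genes past the down-regulation cut-offs from 0 to 2. Each tissue has 1 pair of pools outside the liver, so no value there has an error between pools. Signals near background limit Fos, Atf3 and Nr4a1 in the liver. The LO signals of Fos in the spleen, 69.1 and 55.7, were low too, though well above background.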
